A study of Mus musculus with 2 samples.

Results

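The 6 genes of the Mir181 family were examined in the facial prominences of mouse embryos. They were chosen by name, as all members of 3 clusters that each hold an a/b or a c/d pair, and they are 6 of 1973 microRNA loci counted. All 6 were matched by gene identifier to a symbol. Facial prominences are the swellings of mesenchyme and covering epithelium from which the face is built. All samples belong to 1 group, with no genotype or treatment named: prominences of B6NCrl embryos of mixed sex at 11.5 days. Replicate 1 was a pool from 109 embryos and replicate 2 a pool from 88 embryos, numbered in the labels as biological replicates, and their small RNA was sequenced. Levels are given in CPM, the sense counts scaled to a library total of 1000000; replicate 1 had 1941745 sense counts at the loci (0.515 CPM each) and replicate 2 had 2319881 (0.431 CPM each).

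A microRNA gene is transcribed as part of a longer RNA, from which a hairpin is cut and then trimmed to short mature strands, named 5p and 3p after the arm they come from. The strand loaded into an Argonaute protein lowers the output of messenger RNAs that pair with its seed, here bases 2 to 8. The miR-181 family is best known from thymus and brain, and miR-181a for setting the sensitivity of the T cell receptor during T cell development. Within a cluster the hairpins can come from 1 transcript, but they are processed separately.

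The mature sequences are shown first because they show which family members a read can tell apart. RefSeq sequences (GRCm38.p6) were matched for the mature strands of 6 of 6 members and for 5 hairpins, all but that of Mir181c. In the strands below, written 5′ to 3′, capitals mark the seed.
miR-181a-5p: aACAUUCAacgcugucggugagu
miR-181b-5p: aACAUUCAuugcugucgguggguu
miR-181c-5p: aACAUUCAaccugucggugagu
miR-181d-5p: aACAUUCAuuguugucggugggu
miR-181a-1-3p: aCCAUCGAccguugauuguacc
miR-181c-3p: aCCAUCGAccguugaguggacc
miR-181a-2-3p: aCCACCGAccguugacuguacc
miR-181b-1-3p: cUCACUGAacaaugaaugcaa
miR-181b-2-3p: cUCACUGAucaaugaaugcaaa
miR-181d-3p: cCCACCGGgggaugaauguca

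The 6 loci make 4 different 5p strands, all with the seed ACAUUCA, and no locus outside the family had this seed in the RefSeq table. Counting positions from 1 at the 5′ end and writing the base of the first-named strand first, miR-181a-5p and miR-181b-5p differ by A9U, C10U and A21G, and by 1 base of length. The c strand is nearest to the a strand, at an edit distance of 1 base. The d strand is nearest to the b strand, from which it differs by C12U and 1 base of length. The 3p strands are 6 different sequences with 4 seeds. The strands miR-181a-1-3p and miR-181c-3p share the seed CCAUCGA and differ by U16G and U19G. The 3p strands of both b copies share the seed UCACUGA, whereas miR-181a-1-3p and miR-181a-2-3p differ within the seed, by U5C, and again by U16C.

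The strand miR-181a-5p is made by both Mir181a-1 and Mir181a-2, and miR-181b-5p by both Mir181b-1 and Mir181b-2. The count tables set apart reads placed at several positions: 1081615 reads in replicate 1 and 1388721 in replicate 2, or 22.7% and 20.5% of all reads. Which of these were miR-181a-5p or miR-181b-5p was not analysed here. In the hairpins of the 4 copies, capitals mark the longest run of bases that a copy shares with the other copy of the same letter.
Mir181a-1 (chr1:137966455-137966541, plus strand): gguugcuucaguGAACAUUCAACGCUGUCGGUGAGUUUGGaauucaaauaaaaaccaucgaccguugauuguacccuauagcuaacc
Mir181a-2 (chr2:38852735-38852810, plus strand): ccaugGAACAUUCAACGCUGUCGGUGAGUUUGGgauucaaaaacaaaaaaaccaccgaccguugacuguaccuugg
Mir181b-1 (chr1:137966639-137966718, plus strand): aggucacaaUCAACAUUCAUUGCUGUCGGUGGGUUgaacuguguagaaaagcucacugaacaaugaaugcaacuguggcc
Mir181b-2 (chr2:38853830-38853918, plus strand): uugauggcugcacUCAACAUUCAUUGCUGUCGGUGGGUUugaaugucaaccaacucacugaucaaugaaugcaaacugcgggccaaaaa

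Both runs hold the whole 5p strand. The run of the a copies is 28 bases long and goes on for 4 bases after the annotated end of miR-181a-5p. That of the b copies is 26 bases long and ends with the last annotated base of miR-181b-5p, where Mir181b-1 continues with G and Mir181b-2 with U. An exact read inside a run has the same sequence at both copies. The 3p strands have no such copy: the longest run of a 3p strand found in the other copy's hairpin was 10 bases for a and 12 bases for b. Between Mir181d and the other hairpins with a sequence the longest shared run was 13 bases, with Mir181b-1. Runs shared by the Mir181c hairpin, which had no sequence, were not examined. An exact read placed at 1 position among the 4 a and b loci has to reach a distinguishing base. Mir181c and Mir181d have mature strands that no other locus makes, so the levels below do not measure the 6 loci with equal completeness. The tables give 1 count per locus and do not separate the 5p from the 3p strand.

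The 3 clusters lie on different chromosomes of GRCm38 (mm10). Mir181a-1 and Mir181b-1 are 97 bases apart on chromosome 1, within an intron of the noncoding transcript Gm4258, and an exon of the long noncoding RNA gene A430106G13Rik on the same strand overlaps the 3′ end of Mir181a-1 and all of Mir181b-1. Mir181a-2 and Mir181b-2 are 1019 bases apart on chromosome 2, on the opposite strand to an intron of Nr6a1, an orphan nuclear receptor gene. Mir181b-2 also lies opposite an exon of the gene model Gm44144. Mir181c (chr8:84178873-84178961) and Mir181d (chr8:84178716-84178787) are 85 bases apart on the minus strand of chromosome 8, in an intron of 1 transcript of Nanos3, a gene known from germ cells. The map of the clusters shows where the shared strands lie.

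**Figure D1:**
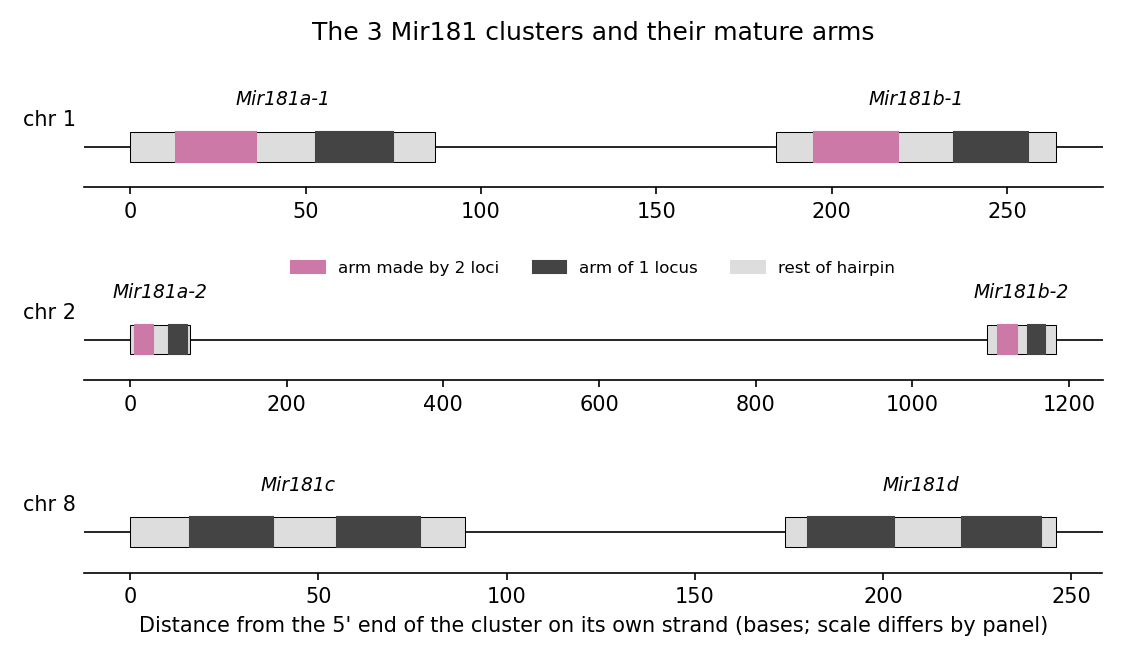
Hairpins of the 3 clusters (boxes) and their mature strands, by distance in bases from the 5′ end of each cluster on its own strand, with a different scale in each panel. Pink strands are made by 2 loci and dark strands by 1. The 5p strand is shared at all 4 a and b loci, and no strand is shared at Mir181c or Mir181d.

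All 6 loci reached at least 10 sense counts in both libraries, against 17.8% of the 1973 loci in the tables. Opposite-strand counts at the members were 0 in both libraries. The family took 2.10% of the sense counts in replicate 1 (95% interval 2.08 to 2.12) and 2.24% in replicate 2 (2.22 to 2.25), or 2.17% ± 0.0955 (SD, n = 2). Intervals throughout are exact (Clopper-Pearson) and cover counting error only.

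By counts at the loci, the c/d cluster was the most abundant. Reads of miR-181a-5p and miR-181b-5p placed at several positions are not counted at the a and b loci. Mir181d had 8380.1 and 8523 CPM in replicates 1 and 2 (8452 ± 101, SD, n = 2), from 16272 and 19773 counts. Mir181c stood at 7703 and 7878 CPM (7791 ± 123), from 14958 and 18276 counts. Mir181d was above Mir181c in both pools, and the difference was small. It was 1.09-fold in replicate 1 (95% interval 1.06 to 1.11) and 1.08-fold in replicate 2 (1.06 to 1.10), or 0.12 ± 0.01 on the log2 scale. The pools differed by less than this at each of these loci, by at most 0.03.

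In the cluster on chromosome 2, the b copy was the higher. Mir181b-2 had 2554 and 3305 CPM (2929.7 ± 531), from 4960 and 7667 counts. Mir181a-2 had 330.1 and 385 CPM (358 ± 39.1), from 641 and 894 counts. Mir181b-2 exceeded its neighbour 7.74-fold in replicate 1 (7.13 to 8.41) and 8.58-fold in replicate 2 (8.0 to 9.20).

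In the cluster on chromosome 1 the order was the other way round. Mir181a-1 stood at 2005 and 2219 CPM (2112 ± 151), from 3893 and 5148 counts. Mir181b-1 was the lowest of the family, at 30.9 and 44 CPM (37.4 ± 9.24), from 60 and 102 counts. Mir181a-1 exceeded Mir181b-1 64.9-fold in replicate 1 (50.3 to 85.2) and 50.5-fold in replicate 2 (41.5 to 62).

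**Figure D2:**
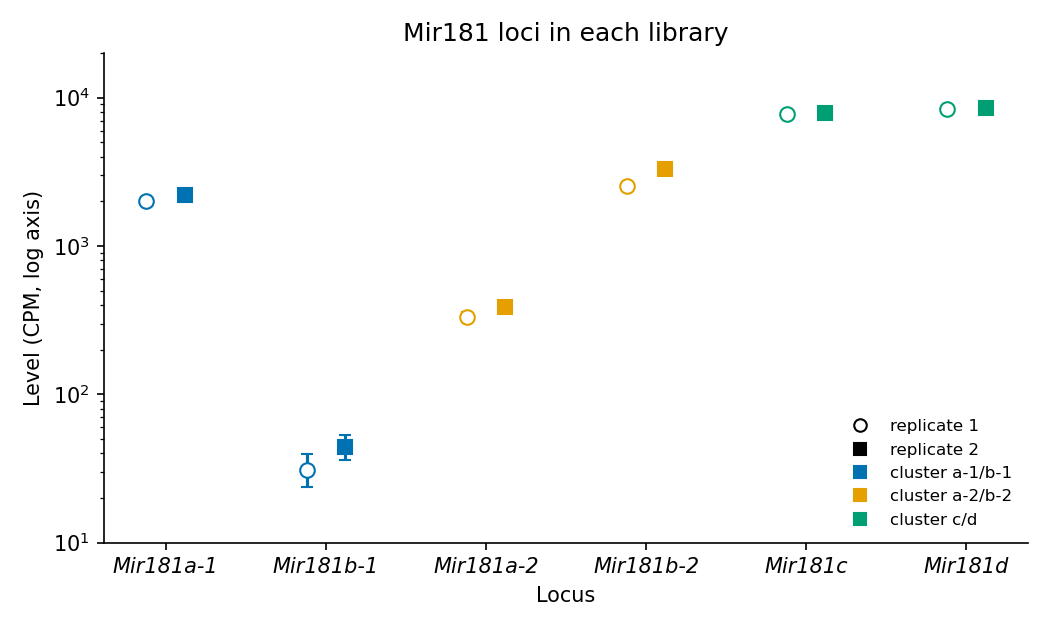
Level of each Mir181 locus in CPM on a log axis, as open circles for replicate 1 and filled squares for replicate 2, with 95% counting intervals where they are wider than the symbol. Colours mark the cluster. The a copy is the higher on chromosome 1 and the b copy on chromosome 2, and Mir181c and Mir181d stand above the other 4 loci in both libraries.

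From the highest to the lowest, the order was Mir181d, Mir181c, Mir181b-2, Mir181a-1, Mir181a-2 and Mir181b-1, in each library alone as well as in the mean. Of the 15 pairs of members, 14 differed in each library by more than the difference between the pools of either locus. The exception was Mir181b-2 over Mir181a-1, at a log2 ratio of 0.35 in replicate 1 and 0.57 in replicate 2, against a difference between the pools of 0.37 for Mir181b-2. No test between conditions exists with 1 group, and 2 libraries allow no two-sided exact test below p = 0.5. These levels were not divided by hairpin length (72 bases for Mir181d to 89 for Mir181c and Mir181b-2); divided by it, the order was the same.

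By cluster, c/d held 76.6% of the family's counts in replicate 1 (76.2 to 77.0) and 73.4% in replicate 2 (73.0 to 73.7). The cluster on chromosome 2 held 13.7% (13.4 to 14.1) and 16.5% (16.2 to 16.8), and that on chromosome 1 held 9.69% (9.41 to 9.98) and 10.1% (9.87 to 10.4). Of all sense counts, c/d took 1.62% ± 0.0225, the chromosome 2 cluster 0.329% ± 0.0570 and the chromosome 1 cluster 0.215% ± 0.0161. These shares leave out reads of miR-181a-5p and miR-181b-5p placed at several positions, so they are not the shares of the mature microRNAs in the tissue.

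Among all loci of the tables by mean CPM, Mir181d was in place 30 and Mir181c in place 36, followed by Mir181b-2 in place 65, Mir181a-1 in place 81, Mir181a-2 in place 153 and Mir181b-1 in place 266. The loci nearest in level to Mir181d were Mir140, known from cartilage, at 8587 ± 460 CPM and the imprinted Mir296 at 8557 ± 716 CPM above it, and the epithelial Mir429 at 8239 ± 458 CPM and the growth-associated Mir21a at 8189 ± 618 CPM below it. Mir181d was above Mir296 and below Mir140, Mir429 and Mir21a in replicate 1. In replicate 2 it was below Mir296 and above the other three. Nearest to Mir181b-2 were Mir200b and Mir101b above, and Mir139 and Mir125b-1 below, from 3003 to 2820.3 CPM in the mean. All 4 were above Mir181b-2 in replicate 1 and below it in replicate 2. Nearest to Mir181a-1 were Mir10a and Mir425 above, and Mir107 and Mir135b below, from 2165 to 2048 CPM in the mean. Mir181a-1 was above Mir425 and below the other three in replicate 1, and the other way round in replicate 2. With 2 libraries this is likeness of level only.

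**Figure D3:**
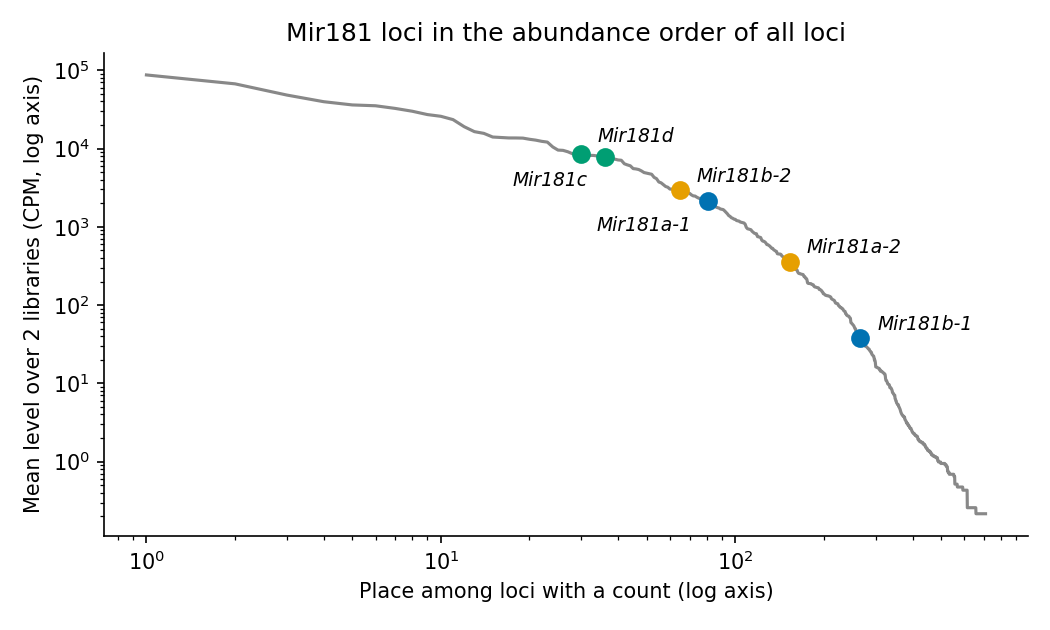
Mean level over both libraries (CPM, log axis) against place in the abundance order (log axis) for all loci with a count (grey line), with the 6 Mir181 loci as coloured points. Mir181d and Mir181c lie in places 30 and 36, and Mir181b-1 in place 266.

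The copies of 1 microRNA were then set against each other. Mir181a-1 exceeded Mir181a-2 by 6.07-fold in replicate 1 (5.59 to 6.61) and 5.76-fold in replicate 2 (5.36 to 6.19). Mir181b-2 exceeded Mir181b-1 by 82.7-fold (64.1 to 109) and 75.2-fold (61.8 to 92.3). Both intervals overlapped between the pools, so each ratio repeated within counting error. For a, the copy on chromosome 1 was the higher, and for b the copy on chromosome 2.

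Numbered copies occur in 45 families of the count data, and in 19 of these the second most abundant copy reached a mean count of at least 10. Summed over their copies, the 5 most abundant were Mir92 (7826 CPM), Mir125b (3412 CPM), Mir16 (3396 CPM), Mir181b (2967 CPM) and Mir181a (2469.7 CPM). The other three had ratios of the most to the next most abundant copy of 15.2-fold, 4.69-fold and 4.38-fold in replicate 1, and of 14.2-fold, 4.85-fold and 4.21-fold in replicate 2. Over the 19 families the median log2 ratio was 1.76. Mir181b had the highest, at 6.29 ± 0.09, and Mir181a was in place 5, at 2.56 ± 0.05. The first place of Mir181b rests on the minimum count. Mir194, named after its values were seen, had a less abundant copy below that minimum and a ratio of 87-fold in replicate 1, with 0 counts at that copy in replicate 2. How far each family's ratio is set by bases that tell its copies apart was not tested.

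**Figure D4:**
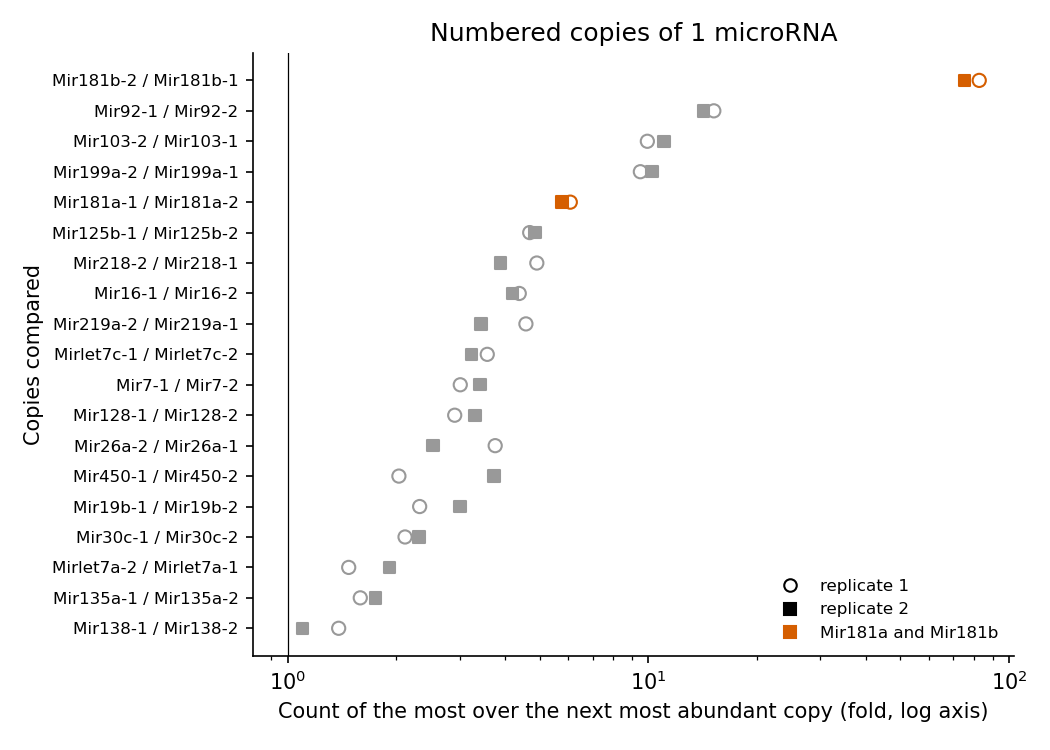
Count of the most abundant over the next most abundant copy (fold, log axis) in the 19 families whose second copy has a mean count of at least 10, with open circles for replicate 1 and filled squares for replicate 2. The Mir181b copies lie farthest to the right, at 82.7-fold and 75.2-fold, and the Mir181a copies at 6.07-fold and 5.76-fold.

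Loci were also classed by their mature strands in RefSeq, which held 916 of the tables' loci. Mir181c and Mir181d belong to 829 loci with no strand made elsewhere, of which 276 were detected, with a median of 289 CPM among those detected. The other 4 members belong to 53 loci that share some but not all strands, of which 37 were detected, with a median of 84.4 CPM. Mir181b-2, Mir181a-1 and Mir181a-2 were above the median of their class, and Mir181b-1 was below it. The remaining 34 loci share every strand, and 7 of them were detected.

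The pools were compared last. All 6 members had a higher CPM in replicate 2, as did 51.2% of the 363 loci whose counts averaged 10 or more. Of the 257 loci whose counts averaged 100 or more, 50.6% were higher there, as were all 5 members among them. The sizes were small: none of the 6 passed 2-fold in either direction, against 5.23% of the 363 loci. The median log2 ratio of the members was 0.18, against 0.02 over the 363 loci. Whatever the sign, the median size was 0.185 for the members and 0.179 over the 363 loci. The direction depends on the scaling. Reads assigned to loci on the sense strand were 40.8% of all reads in replicate 1 and 34.2% in replicate 2, and with all reads as the total every locus shifts by -0.26 on the log2 scale. On that scale only Mir181b-2 (0.12) and Mir181b-1 (0.25) were higher in replicate 2, against 21.2% of the 363 loci.

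The a and b loci had higher ratios than the c/d pair. Mir181b-2 was 1.29-fold higher in replicate 2 (1.25 to 1.34), and 17 of the 257 loci had a higher ratio. Mir181a-2 was 1.17-fold higher (1.05 to 1.29) and Mir181a-1 1.11-fold (1.06 to 1.15), with 44 and 70 loci above them. Mir181b-1, whose mean count of 81 is below that minimum, was 1.42-fold higher (1.02 to 1.99). Mir181c and Mir181d were at 1.02-fold (1.00 to 1.05) and 1.02-fold (0.996 to 1.04), and the interval of Mir181d included no difference.

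Summed, the 4 a and b loci had a log2 ratio of 0.27 (0.24 to 0.31) and the c/d pair one of 0.03 (0.01 to 0.05). These intervals do not overlap, but they cover counting error only, and each compares a single library with a single library. Among the 257 loci, the median size of the log2 ratio was 0.14, whatever its sign. Mir181b-2, Mir181a-2 and Mir181a-1 were above this size, while 237 loci had a larger one than Mir181d and 229 a larger one than Mir181c. A counting interval wholly above 0 was found for 4 of the 5 members tested there, against 30% of the 257 loci. Such intervals narrow as counts rise, and the 257 loci were not matched by count to these members. Their mean counts ran from 767.5 (Mir181a-2) to 18022.5 (Mir181d). With all reads as the total, only Mir181b-2 of the 5 had a log2 ratio above 0 (0.12). In pooled tissue, fewer cells of a type and less RNA per cell cannot be told apart. Reads placed at several positions, which the a and b loci can lose, numbered 1081615 in replicate 1 and 1388721 in replicate 2. They were 22.7% and 20.5% of all reads, but the ratios use the sense total. Per sense count (totals 1941745 and 2319881) these reads were more numerous in replicate 2. Their part in the ratios of these loci was not tested.

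**Figure D5:**
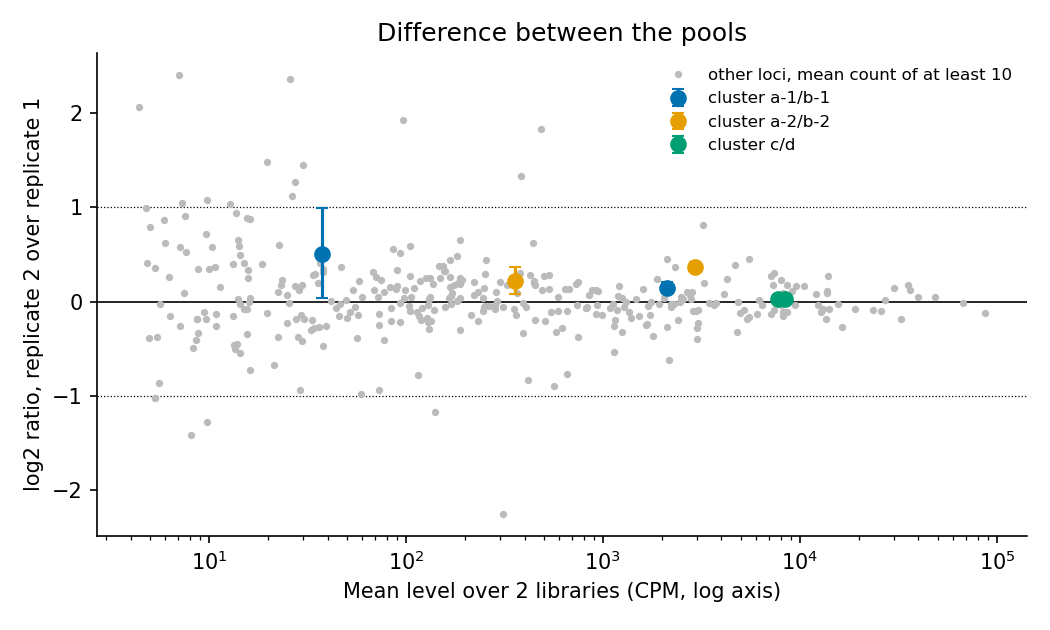
Log2 ratio of replicate 2 over replicate 1 (CPM) against the mean level (CPM, log axis), for the 6 Mir181 loci with 95% counting intervals (coloured by cluster) and for the other loci whose counts average 10 or more (grey). Dotted lines mark 2-fold. All 6 members lie between 0 and the upper 2-fold line, with Mir181c and Mir181d nearest to 0.

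Loci known from tissues with miR-181, or from the tissues of the face, were measured in the same libraries. In the lymphoid and myeloid list 5 of 7 loci were measured and 4 detected. Mir142 and Mir146a had no match by symbol and were not analysed, so the list is not a full reading of blood cells. The 5 measured loci took 0.521% of the sense counts in replicate 1 and 0.701% in replicate 2. Nearly all of this came from Mir342 (4649 and 6338 CPM, log2 ratio 0.45), which is not limited to blood cells. The myeloid Mir223 had 382 and 466 CPM and Mir155 170 and 196 CPM. The lymphoid Mir150 had 11.3 and 10.3 CPM, and Mir142b 0 counts in both libraries. Of the 4 detected, 3 were higher in replicate 2, against 51.2% of the 363 loci. With all reads as the total 2 were (Mir223 and Mir342), against 21.2%. The part of these loci in the Mir181 difference was not tested.

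In the neural list 16 of 17 loci were measured and 11 detected, with 0.297% and 0.249% of the counts. Its most abundant locus, Mir137, had 1384 and 1109 CPM, and the next, Mir219a-2, had 848 and 651 CPM. Of the 3 copies of the neuronal Mir124a, Mir124a-2 had 9 and 7 counts, Mir124a-1 had 0 and 1 counts and Mir124a-3 had 0 in both libraries. Reads placed at several positions are not in these counts, so low counts at numbered copies do not show that their microRNA is absent. How far this lowers the share of the neural list was not tested. Of the 11 detected neural loci, 5 were higher in replicate 2, near the 51.2% of all 363 loci, and with all reads as the total 1 was (Mir129-2). The endothelial Mir126a had 39037 and 40424 CPM. All 8 loci of the mesenchyme list were detected (7.95% and 8.32% of the counts, led by Mir214, 6 of 8 higher in replicate 2). So were all 7 of the epithelium list (3.31% and 2.95%, led by Mir429, 0 of 7 higher in replicate 2). No cell type was named from the lists, and their shares are not shares of cells. Of all 363 loci, 51.2% were higher in replicate 2. With all reads as the total 21.2% were, with 1 of the 8 mesenchymal loci (Mir145a) and 0 of the 7 epithelial loci. Mir126a was not higher on that scale. No listed locus among the 257 passed 2-fold between the pools, against 1.95% of the 257 loci. The part of these lists in the Mir181 difference was not tested either.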

How the data were processed

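For each library the authors deposited raw read counts by microRNA gene, against mm10 with the GENCODE M4 annotation per the file headers (the description that accompanies each table). The aligner and the counter are not given in the sources used here. The columns of a table are counts irrespective of strand, sense and opposite strand; the sense counts were used. Lines without a gene (unmapped, several positions, no locus) did not enter library sizes; on the sense strand they were 59.2% of all reads in replicate 1 and 65.8% in replicate 2. The labels name no molecular identifiers.

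Symbols and positions (1-based) came from GENCODE M21 on the same assembly: 1894 of 1973 identifiers matched, and the 79 others held 4 counts. CPM used the total of sense counts as the denominator. Log2 ratios had 0.5 counts added. Loci were compared between pools at a mean count of at least 100 or 10, with a 2-fold limit and exact binomial 95% intervals. The 2-fold call and the interval of the ratio between pools were tested on simulated libraries with counting error only. The other steps were not tested in this way. With 1 group no test between conditions exists.

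The members and lists were chosen with earlier results of these data known. The naming rule took the 6 members, and the 2 loci above and 2 below the leading member of each cluster in level. It also took the most abundant locus of each list (lymphoid and myeloid, neural, endothelium, mesenchyme, epithelium) and the 5 most abundant families with copies. Mir194, Mir223, Mir155, Mir150, Mir142b, Mir145a, Mir129-2, Mir219a-2 and the Mir124a copies were named after their values were seen. Listed loci without a match (Mir142, Mir146a and Mir9-1) were not analysed here. Alternatives were other scalings (edgeR 4.0.16 TMM, DESeq2 1.42.0 size factors, under R 4.3.3), strand, count minimum, added count, hairpin length and leaving out a replicate. Intervals used scipy 1.17.1 and figures matplotlib 3.10.9, under Python 3.11.15 with pandas 2.3.3 and numpy 2.4.6.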

Additional observations from a re-analysis of the deposited data

How the results depend on the processing

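The order of the 6 loci and the direction of the 5 ratios within clusters and between copies were the same under every alternative run. Most alternatives could not have changed them. Scaling multiplies all loci of a library alike, the members had 0 opposite-strand counts, and an equal added count keeps the direction of a ratio. Leaving out a replicate repeats the order of each library given above. Beyond that, only dividing by hairpin length could have changed them. With all reads as the total, the shares fell to 0.811% for the family, 0.609% for c/d, 0.122% for the chromosome 2 cluster and 0.0803% for the chromosome 1 cluster, and with counts irrespective of strand the c/d share was 1.57%. Per hairpin base, a setting chosen after seeing the data, log2 ratios were 2.80 for Mir181b-2 over Mir181a-2, 0.42 for Mir181d over Mir181c, 2.37 for Mir181a-1 over Mir181a-2 and 6.14 for Mir181b-2 over Mir181b-1. These follow from the other denominator. All 6 members were higher in replicate 2 under TMM, DESeq2 size factors, counts irrespective of strand and 1 count added. The share of all loci higher there was not counted under these settings. With all reads as the total, also chosen after seeing the data, 2 members were higher, against 21.2% of the 363 loci. On that scale Mir181a-1 (-0.11), Mir181a-2 (-0.032), Mir181c (-0.22) and Mir181d (-0.23) turned. Loci past 2-fold numbered 5 at a mean count of at least 100 (1.95% of 257 loci) and 19 at 10 (5.23% of 363 loci). At 500 they numbered 3, and the loci tested there were not counted. All 6 members were detected at minimums of 1 and 10 counts and 5 at 100. The share of all loci was counted only at 10, at 17.8% of the 1973 loci. No paired analysis was possible because there is 1 group. A count of 0 would allow 1.55 CPM in replicate 1 and 1.29 CPM in replicate 2, far below each member.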
